A study of Mus musculus with 6 samples.

Results

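H89 is a small-molecule inhibitor that is best known for blocking protein kinase A (PKA), and it also inhibits other serine/threonine kinases. The genes described here are 10 kinases of that kind, chosen by name as kinases that H89 inhibits: Rock1, Rock2, Rps6ka5 (MSK1), Rps6ka4 (MSK2), Rps6kb1 (S6K1), Rps6kb2 (S6K2), Akt1, Prkg1 (PKG I), Pkn2 (PRK2) and Prkd1 (PKD1), out of 23557 genes in the table. They were measured by RNA sequencing of whole CT26 tumors, CT26 being a BALB/c colon carcinoma cell line, of which 500000 cells had been injected under the skin of immunocompetent female BALB/c mice. Per the study's methods the mice were 7 weeks old, treatment began on day 6, and injections into the abdomen were given 2 times a week. The control group received NaCl alone (3 tumors), and the other group received H89 at 10 mg/kg in NaCl (3 tumors). Tumors of both groups were removed on day 14, and each carries a replicate number in its label. The tumors of a group came from separate mice according to the study, and p-values measure the spread between them.

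An inhibitor such as H89 occupies the ATP pocket of a kinase and blocks its activity, which mRNA levels do not show. ROCK1 and ROCK2 are the effector kinases of the small GTPase RhoA and control actin and myosin contraction, PRK2 is another effector of RhoA, and PKD1 acts downstream of protein kinase C. MSK1 and MSK2 are nuclear kinases activated by the ERK and p38 MAP kinases that phosphorylate CREB and histone H3. S6K1, S6K2 and AKT1 belong to the PI3K, AKT and mTORC1 growth pathway, and PKG I is the kinase activated by cGMP in smooth muscle.

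The question put to these data is whether the mRNA of the kinases themselves, or of the pathways they serve, differed between H89-treated and NaCl tumors. None of the kinases passed the test. Of the 10, 9 reached the minimum of 0.5 counts per 1000000 (CPM) on average over the 6 tumors and were tested, and Prkg1 did not. With edgeR's quasi-likelihood test and a Benjamini-Hochberg adjusted p under 0.05, 0 of the 9 were called, where 1.59% of all 13118 tested genes were (0.861% higher and 0.724% lower in H89 tumors). At an unadjusted p under 0.05 the same test also gave 0 of 9, against 25.0% of all genes. DESeq2 called 1406 of 18837 genes and 0 of these kinases. Their log2 fold changes (H89 minus NaCl) lay between -0.25 for Rps6ka4 and 0.28 for Prkd1, with 7 above 0 and 2 below, and their median was 0.17, where the median over all tested genes was 0.00. Groups did not overlap for 1 of the 9, Rps6kb1, against 30.7% of all tested genes.

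The total estimated count per tumor was between 27067349 and 31958793. H89 tumor 3 stood apart, with a chi-square per gene of 101.03 and 79.97 against the other H89 tumors, where the other pairs within a group gave 25.28 to 40.04. Without it, edgeR called only 12 of 13084 tested genes and 0 of the 9 kinases. An unadjusted p under 0.05 was then found for 2622 of all tested genes and 0 of the 9 kinases. The log2 fold changes of the kinases lay between -0.20 and 0.35. No markers of another cell type that were listed (pericyte and smooth muscle, fibroblast, endothelial, skeletal muscle, keratinocyte, T cell, B cell, macrophage, neutrophil) passed the test. Log2 fold changes were above 0 for 8 of 8 fibroblast and 7 of 7 T cell markers, and below 0 for 8 of 11 pericyte and smooth muscle and 6 of 8 endothelial markers. The summed fibroblast level was 2500 to 2750 CPM in the NaCl group and 2820 to 3600 CPM in the H89 group, and the summed T cell level was 15.3 to 32.6 CPM and 27.5 to 73.3 CPM. The summed B cell level was 1.40 to 1.86 CPM in the controls against 2.32 to 3.43 CPM under H89, and skeletal muscle markers reached 21.5 CPM in H89 tumor 1, mostly Acta1 at 12.3 CPM. The part of these shifts in the values below was not tested. Of the 9 colon epithelial markers, whose summed level was 22.9 to 33.2 CPM in the NaCl group and 19.9 to 24.2 CPM in the H89 group, Epcam, Cdx2 and Vil1 were under the minimum level. The sum moved with Krt18 (16.7 and 8.11 CPM, edgeR adjusted p = 0.0653), and the other 5 of the 6 tested markers had log2 fold changes above 0. In bulk tumors, fewer cells of a type and less RNA per cell cannot be told apart.

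The upstream sequences of the kinase genes were searched for the cAMP response element, the site that CREB binds, because CREB is phosphorylated by PKA and by MSK1 and MSK2. The RefSeq table for GRCm38.p6 held 8 of the 10 kinases (Rock1 and Rps6kb2 were not among them), and the 250 bases before each start were read on both strands. Kinases were counted per gene, and Akt1 and Prkg1 had 2 windows each, while shares of all windows were counted per window. The full element TGACGTCA was in 0 of the 8 and in 1.5% of all 32851 windows. Its core TGACG, which is contained in the full element, was in 2 of the 8 and in 17.8% of all windows. A count of 2 among 8 is near that share, and the difference was not tested. The 2 windows are those of the MSK genes Rps6ka5 and Rps6ka4, and no other of the 8 kinases searched held the letters. Each is shown 5′ to 3′ on the minus strand, which is the strand of the gene, and capitals mark the core, written here as its reverse complement. For Rps6ka5 the stretch is chr12:100725121-100725370, and the site begins 99 bases before the RefSeq start. GENCODE M21 places this stretch in an intron, since some of its Rps6ka5 transcripts begin further upstream. For Rps6ka4 it is chr19:6840637-6840877, cut where the first exon of GENCODE M21 begins, and the site begins 97 bases before the RefSeq start.
Rps6ka5: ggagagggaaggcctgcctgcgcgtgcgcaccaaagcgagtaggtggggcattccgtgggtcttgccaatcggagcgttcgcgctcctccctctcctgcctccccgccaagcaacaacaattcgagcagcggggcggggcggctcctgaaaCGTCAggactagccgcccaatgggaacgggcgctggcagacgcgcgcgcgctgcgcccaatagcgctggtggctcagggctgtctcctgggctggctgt
Rps6ka4: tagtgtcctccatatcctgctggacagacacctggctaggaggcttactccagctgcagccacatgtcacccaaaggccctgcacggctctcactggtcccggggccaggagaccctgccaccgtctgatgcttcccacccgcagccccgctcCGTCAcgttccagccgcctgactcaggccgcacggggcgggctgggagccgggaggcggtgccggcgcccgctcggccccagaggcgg
The SP1 box GGGCGG was in 7 of the 8 kinases (all but Rps6kb1) and in 32.7% of all windows. The E-box CACGTG was in 1 of the 8 (Pkn2) and in 6.0% of windows, and the CCAAT box was in 2 of the 8 (Prkg1 and Rps6ka5) and in 33.8%. A match is a description of the letters and not a measured binding site.

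Levels of different genes were set side by side as CPM per kilobase of the longest annotated transcript. Which transcript form the tumors used was not measured, so the order holds for these lengths. Akt1 stood highest, at 165 ± 12.8 CPM per kilobase in NaCl tumors (SD, n = 3) and 145 ± 13.1 in H89 tumors. Rps6ka4 followed at 58.6 ± 9.43 and 49.4 ± 5.74, and then Rock2 at 24.5 ± 1.37 and 25.2 ± 2.76. Over the 6 tumors the ranges of these 3 kinases did not overlap with each other or with any lower one. Pkn2 (14.5 to 17.8 CPM per kilobase) and Rock1 (11.8 to 15.4) overlapped, so their order is not settled by the spread. Rps6kb1 (7.72 to 9.32) and Rps6kb2 (1.95 to 2.97) were separate from their neighbours, whereas Prkd1 (1.12 to 1.79) and Rps6ka5 (0.746 to 1.33) overlapped. Prkg1 was lowest, with means of 0.0141 in NaCl and 0.00726 in H89 tumors. Within each family 1 member was therefore the more abundant transcript: Rock2 over Rock1, Rps6ka4 over Rps6ka5 and Rps6kb1 over Rps6kb2.

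**Figure D1:**
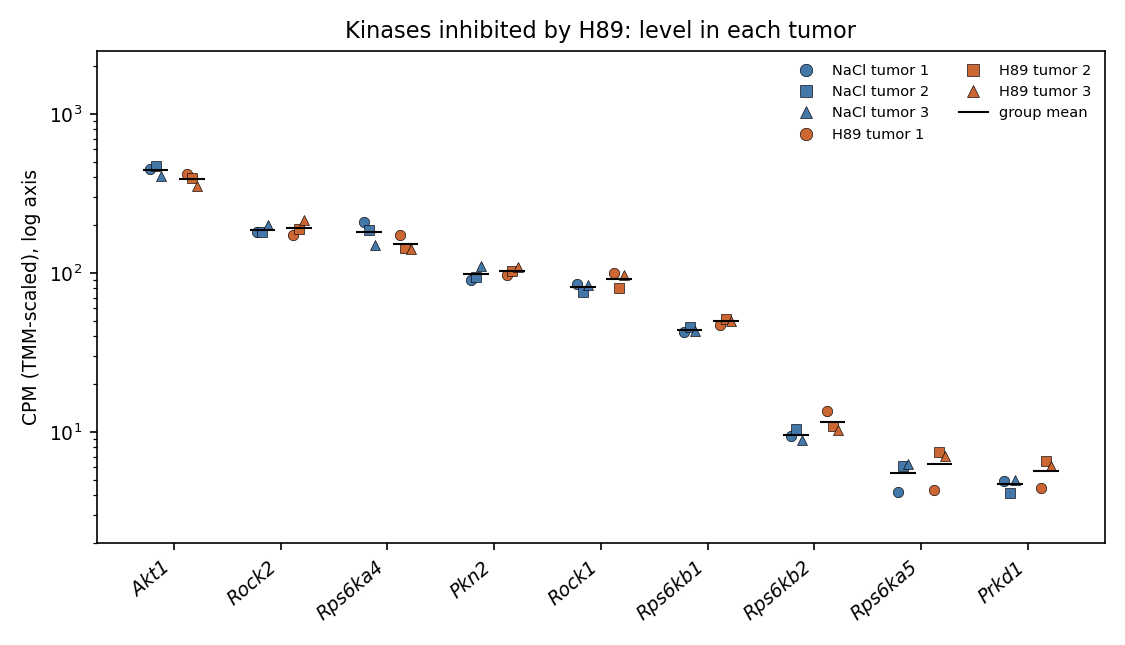
Level of each of the 9 tested kinases in every tumor, in CPM on a logarithmic axis, with NaCl and H89 tumors side by side and the group mean as a line. The ranges of both groups overlap for every kinase drawn except Rps6kb1, and Prkg1, which was under the minimum level, is not drawn.

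The ROCK genes did not differ beyond their spread. Rock1 (ENSMUSG00000024290, chromosome 18, 10064401 to 10182045, minus strand, GRCm38) was measured at 85.5, 76.0 and 84.6 CPM in NaCl tumors 1, 2 and 3 and at 99.3, 80.3 and 97.2 CPM in H89 tumors 1, 2 and 3. In H89 tumors 1 and 3 it was above every NaCl tumor, but H89 tumor 2 lay among the controls, so the groups overlapped. The log2 fold change was 0.17 (SE 0.10, 95% interval -0.07 to 0.41, edgeR adjusted p = 0.344, exact two-sided permutation p = 0.3, where the smallest p that 3 against 3 tumors allows is 0.1). It was 0.11 without H89 tumor 1 and 0.26 without H89 tumor 2. Rock2 (ENSMUSG00000020580, chromosome 12, 16894895 to 16987823, plus strand) was measured at 182, 180 and 199 CPM in the NaCl group and 174, 189 and 216 CPM in the H89 group. The lowest and the highest Rock2 values both came from the H89 group. Its log2 fold change was 0.04 (SE 0.10, interval -0.20 to 0.28, adjusted p = 0.836), and without H89 tumor 3 it was -0.05. The interval allows Rock2 to be between 0.873-fold and 1.21-fold of its NaCl level. The log2 ratio of Rock1 to Rock2 within a tumor does not depend on the scaling between libraries. It was -1.19 ± 0.09 in NaCl and -1.06 ± 0.22 in H89 tumors, a difference of 0.13 (exact permutation p = 0.5, Benjamini-Hochberg adjusted p = 0.67 over the 8 ratios of related kinases computed, of which 6 are reported).

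Pkn2 (ENSMUSG00000004591, chromosome 3, 142790902 to 142882004, minus strand), the other RhoA effector, was measured at 90.3, 95.0 and 111 CPM in the NaCl group and 96.9, 103 and 109 CPM in the H89 group. All H89 values lay inside the NaCl range. Its log2 fold change was 0.06 (SE 0.10, interval -0.17 to 0.29, edgeR adjusted p = 0.722), and it was 0.00 without NaCl tumor 1 and 0.15 without NaCl tumor 3.

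Both MSK genes also overlapped between groups. Rps6ka5, which encodes MSK1 (ENSMUSG00000021180, chromosome 12, 100548439 to 100726983, minus strand), was measured at 4.21, 6.08 and 6.29 CPM in the NaCl group and 4.31, 7.48 and 7.02 CPM in the H89 group. The first tumor of each group was the low one, and H89 tumors 2 and 3 were the highest of the 6. H89 against NaCl gave a log2 fold change of 0.19 (SE 0.25, interval -0.40 to 0.77, edgeR adjusted p = 0.679), the widest interval of the kinases tested. It ranged from 0.02 without NaCl tumor 1 to 0.39 without H89 tumor 1, and was 0.04 without H89 tumor 2 and 0.10 without H89 tumor 3. Its counts per tumor were between 117 and 246, and at 117 counts the counting error alone is 9.25% of the value. Rps6ka4, which encodes MSK2 (ENSMUSG00000024952, chromosome 19, 6829085 to 6840636, minus strand), was measured at 210, 185 and 151 CPM in the NaCl group and 174, 144 and 142 CPM in the H89 group. NaCl tumors 1 and 2 were above every H89 tumor, and NaCl tumor 3 was under H89 tumor 1. Its log2 fold change was -0.25 (SE 0.14, interval -0.57 to 0.07, adjusted p = 0.301), and it ranged from -0.36 without NaCl tumor 3 to -0.13 without NaCl tumor 1. The ratio of Rps6ka5 to Rps6ka4 differed by 0.39 on the log2 scale (-4.93 ± 0.51 in NaCl, -4.53 ± 0.56 in H89, exact permutation p = 0.5, adjusted p = 0.67). The exons of Rps6ka4 overlap those of CAAA01066123.1 and of the microRNA gene Mir5046 on the same strand, so reads there could have been split.

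S6K1 came nearest to a difference. Rps6kb1 (ENSMUSG00000020516, chromosome 11, 86498871 to 86544805, minus strand) was measured at 42.7, 46.0 and 42.9 CPM in the NaCl group and 47.4, 51.6 and 50.1 CPM in the H89 group. Each H89 tumor was above each NaCl tumor, as was the case for 15.2% of all tested genes. The log2 fold change was 0.18 (SE 0.08, interval -0.01 to 0.36, unadjusted p = 0.0552, edgeR adjusted p = 0.21, exact permutation p = 0.1), which is 1.13-fold, and it was 0.15 to 0.21 when any 1 tumor was left out. After the values were corrected for GC content and length of the transcripts it was 0.00. Rps6kb1 shares 155 exon bases with Rnft1 on the opposite strand. Rps6kb2, which encodes S6K2 (ENSMUSG00000024830, chromosome 19, 4153991 to 4163354, minus strand), was measured at 9.46, 10.4 and 8.95 CPM in the NaCl group and 13.6, 10.9 and 10.3 CPM in the H89 group. H89 tumor 1 stood above the others, and H89 tumor 3 was under NaCl tumor 2, so the groups overlapped by that pair alone. Its log2 fold change was 0.27 (SE 0.15, interval -0.07 to 0.62, adjusted p = 0.292), and 0.15 without H89 tumor 1. Of the 5167 exon bases of Rps6kb2, 1224 are shared with Ptprcap on the opposite strand, and the strandedness of the reads is not given in the sources used here. Ptprcap encodes a partner of the leukocyte phosphatase CD45 and was measured at 1.57 ± 0.766 CPM in the NaCl group and 3.78 ± 1.21 CPM in the H89 group (log2 fold change 1.26, adjusted p = 0.123). Whether reads of that stretch were assigned by strand is not known. The log2 ratio of Rps6kb1 to Rps6kb2 was 2.14 ± 0.06 in NaCl and 2.06 ± 0.26 in H89 tumors (exact permutation p = 0.9).

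Akt1 (ENSMUSG00000001729, chromosome 12, 112653821 to 112674884, minus strand), the most abundant of the kinases, was measured at 452, 474 and 406 CPM in the NaCl group and 422, 393 and 352 CPM in the H89 group. H89 tumors 2 and 3 were the lowest, but H89 tumor 1 was above NaCl tumor 3. For Akt1 the log2 fold change was -0.19 (SE 0.10, interval -0.43 to 0.05, edgeR adjusted p = 0.289). The interval runs from 0.744-fold to 1.03-fold, and the log2 value was -0.12 without H89 tumor 3. Akt2, which encodes the isoform known for insulin-driven glucose uptake, was measured at 225, 202 and 205 CPM in the NaCl group and 174, 164 and 171 CPM in the H89 group. Its groups were apart, and its log2 fold change of -0.31 (SE 0.08) had an adjusted p of 0.0847. The ratio of Akt1 to Akt2 differed by 0.12 on the log2 scale (1.07 ± 0.13 in NaCl, 1.19 ± 0.13 in H89, exact permutation p = 0.2, adjusted p = 0.67), so a difference in response between Akt1 and Akt2 was not shown.

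Prkd1 (ENSMUSG00000002688, chromosome 12, 50341231 to 50649098, minus strand) was measured at 4.89, 4.10 and 5.01 CPM in the NaCl group and 4.42, 6.53 and 6.08 CPM in the H89 group. H89 tumors 2 and 3 were highest and H89 tumor 1 lay among the controls. The log2 fold change of 0.28 was the largest of the kinases, with an SE of 0.20 (interval -0.17 to 0.74, edgeR adjusted p = 0.404). It was 0.17 without H89 tumor 2 and 0.44 without H89 tumor 1. Between 110 and 215 reads per tumor stood behind these values. The related PKD gene Prkd2 was at 24.6 to 29.9 CPM in NaCl and 26.1 to 38.2 CPM in H89 tumors. Prkd3 was at 6.22 to 6.86 and 5.81 to 8.18 CPM, and the groups overlapped for both genes. The log2 ratio of Prkd1 to Prkd2 was -2.45 ± 0.27 in NaCl and -2.39 ± 0.54 in H89 tumors (exact permutation p = 0.9). For Prkd1 to Prkd3 it was -0.46 ± 0.19 and -0.33 ± 0.03 (exact permutation p = 0.3).

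PKG I was at the limit of detection. Prkg1 (ENSMUSG00000052920, chromosome 19, 30564489 to 31765033, minus strand) had 0, 3 and 5 counts in NaCl tumors 1, 2 and 3 and 0, 2 and 3 counts in H89 tumors 1, 2 and 3. In CPM these are 0, 0.112 and 0.183 in NaCl and 0, 0.0608 and 0.0912 in H89 tumors. A count of 0 allows up to 3 counts, which is 0.108 CPM in NaCl tumor 1 and 0.107 CPM in H89 tumor 1, for counting error only. A difference in Prkg1 was not detectable at this depth. Markers of pericytes and smooth muscle, in which PKG I is best known, summed to 189 to 256 CPM in the NaCl group and 181 to 226 CPM in the H89 group, with Cnn1 under the minimum level. Prkg2, which encodes the second cGMP-dependent kinase PKG II (chromosome 5, 98929773 to 99037351, minus strand), was by contrast abundant. It was measured at 254, 295 and 397 CPM in the NaCl group and 127, 194 and 201 CPM in the H89 group. All H89 tumors were under all NaCl tumors, as was the case for 15.5% of all tested genes. The log2 fold change of -0.86 (SE 0.21, interval -1.36 to -0.36) is 0.551-fold, with an unadjusted p of 0.004 and an edgeR adjusted p of 0.08, so it did not pass. It was between -0.99 and -0.66 when any 1 tumor was left out, and DESeq2 gave an adjusted p of 0.000778.

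**Figure D2:**
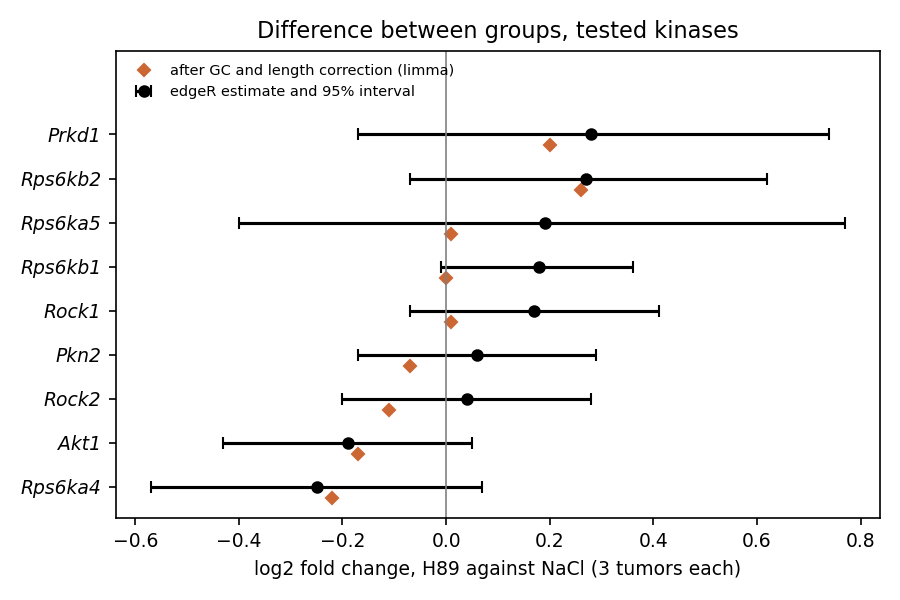
Log2 fold change of H89 against NaCl tumors for the 9 kinases tested, with 95% intervals, from the edgeR fit over 13118 genes, and diamonds for the values after correction for GC content and length. Every interval includes 0, and that of Rps6kb1 (-0.01 to 0.36) does so by the least.

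Among the 16 close relatives of the kinases, 14 were tested and 0 were called, against 1.59% of all tested genes, with 5 (35.7%) at an unadjusted p under 0.05, against 25.0%. Groups did not overlap for 7 of the 14 (1 with H89 above, 6 below), against 30.7% of all tested genes. Besides Prkg2 and Akt2, the H89 tumors were the lower ones for Rps6ka2, which encodes the MAP kinase-activated kinase RSK3. It was measured at 39.5, 48.6 and 50.1 CPM in the NaCl group and 26.2, 33.5 and 31.1 CPM in the H89 group, all under the lowest control. Its log2 fold change was -0.61 (SE 0.13, edgeR adjusted p = 0.0617), and the adjusted p was 0.0492 in edgeR with no filter and 0.00145 in DESeq2. Relatives whose H89 values were all lower also included Sgk1 (49.0 ± 3.81 and 43.9 ± 2.11 CPM) and Rps6kc1 (34.9 ± 1.23 and 30.6 ± 2.54 CPM), and Sgk3 was the one with all H89 values higher (6.51 ± 0.839 and 8.58 ± 1.08 CPM). Rps6ka1 and Rps6ka3, which encode RSK1 and RSK2, overlapped between groups.

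**Figure D3:**
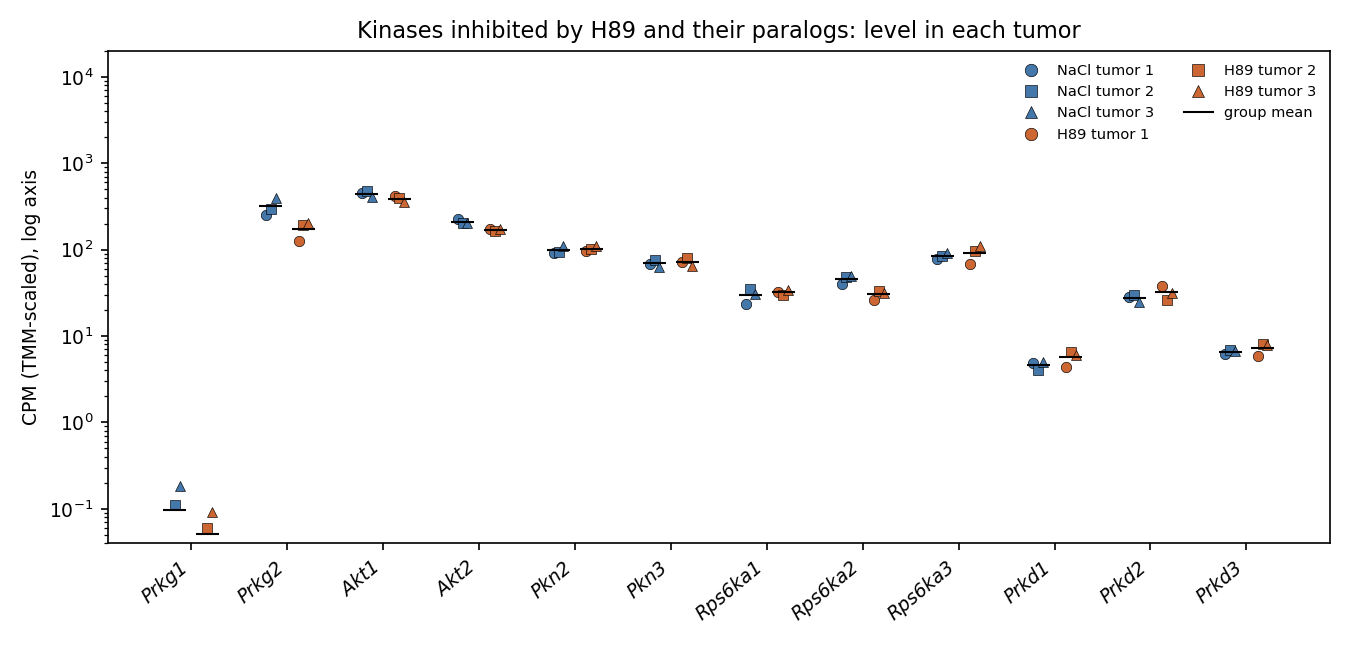
Level of kinases and several of their relatives in each tumor, in CPM on a logarithmic axis, grouped by family. The Prkg2, Akt2 and Rps6ka2 points of H89 tumors lie under those of NaCl tumors, Akt1 and Pkn2 overlap, and Prkg1 tumors with 0 counts are not drawn.

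The genes around the kinases were described with lists of activators, inhibitors and substrates, 177 genes including the relatives, of which 167 were tested. Of these, 2 were called and both fell, against 1.59% of all genes in either direction, and 53 (31.7%) had an unadjusted p under 0.05, against 25.0% of all genes. The number of these genes called depended on the tool, being 22 with DESeq2, 2 with voom in limma and 0 with limma on log2(CPM + 0.5). Rhob encodes a short-lived small GTPase of endosomes that binds the ROCK kinases. It was measured at 141, 143 and 149 CPM in the NaCl group and 103, 99.2 and 81.3 CPM in the H89 group, so that the highest H89 tumor was well under the lowest control. Its log2 fold change was -0.61 (SE 0.10, edgeR adjusted p = 0.0417). Eif4ebp1 encodes 4E-BP1, the repressor of cap-dependent translation that mTORC1 phosphorylates. It was measured at 601, 566 and 596 CPM in the NaCl group and 377, 365 and 359 CPM in the H89 group, with a spread within each group far smaller than the gap. This gave a log2 fold change of -0.68 (SE 0.08, adjusted p = 0.0338), which is 0.625-fold. Neither call survived the loss of a tumor. Leaving out any 1 of the 6 gave an adjusted p of 0.0667 to 0.142 for Rhob and 0.0667 to 0.13 for Eif4ebp1, while the log2 fold changes stayed between -0.67 and -0.51 and between -0.71 and -0.66. With limma on log2(CPM + 0.5) the adjusted p was 0.0614 for Rhob and 0.059 for Eif4ebp1, and with the correction for GC content and length it was 0.0668 for both. DESeq2 gave adjusted p-values of 1.48e-05 for Rhob and 2.39e-13 for Eif4ebp1.

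In the RhoA and ROCK pathway 36 of 36 genes were tested, 1 was called lower (Rhob) and 0 higher. Over all tested genes 0.724% were called lower and 0.861% higher. The median log2 fold change was -0.14, against 0.00 for all genes. Rhoc, a small GTPase linked to cell motility, was at 282 ± 33.6 CPM in the NaCl group and 202 ± 1.23 CPM in the H89 group (log2 fold change -0.48, edgeR adjusted p = 0.0615). Inhibitors of RhoA signaling were also lower in H89 tumors without passing the test, namely Arhgap35, which encodes p190RhoGAP (149 ± 6.53 and 113 ± 10.3 CPM, adjusted p = 0.0729), and Arhgdib, the leukocyte RhoGDI (349 ± 15.0 and 283 ± 18.7 CPM, adjusted p = 0.0952). Among ROCK substrates, Ppp1r12b, a myosin phosphatase targeting subunit, was at 71.9 ± 9.46 and 94.6 ± 5.77 CPM (adjusted p = 0.0917), and Ezr, the membrane linker ezrin, was at 281 ± 7.62 and 243 ± 6.01 CPM (adjusted p = 0.143). All of these named genes, which were picked by their p, were apart between groups, and none but Rhob passed the main test. Groups did not overlap for 41.7% of the 36 genes, against 30.7% of all tested genes. Rhoc passed in edgeR with no filter (adjusted p = 0.0496), and DESeq2 gave adjusted p-values of 0.00076 for Rhoc, 0.00633 for Arhgap35, 0.0121 for Arhgdib and 0.0374 for Ppp1r12b.

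Upstream of the MSK kinases, 0 of 9 tested MAP kinases and MAP kinase kinases were called, against 1.59% of all tested genes. Map2k3, an activator of p38, was at 121 ± 5.01 CPM in the NaCl group and 99.8 ± 7.31 CPM in the H89 group (edgeR adjusted p = 0.105). Mapk3, which encodes ERK1, was at 443 ± 66.9 and 342 ± 5.37 CPM (adjusted p = 0.108). Both were picked by their p and had H89 values below every control, as was the case for 15.5% of all tested genes.

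In the mTORC1 and S6K pathway 33 of 35 genes were tested and 1 was called, the lower Eif4ebp1, against 1.59% of all tested genes. The median log2 fold change was -0.08, against 0.00 for all genes. An unadjusted p under 0.05 in edgeR was found for 24.2% of them, against 25.0% of all genes. Sesn2 and Sesn1 encode sestrins, stress-induced inhibitors of mTORC1, and their values went opposite ways. Sesn2 was at 52.3 ± 1.77 CPM in the NaCl group and 37.8 ± 5.96 CPM in the H89 group (edgeR adjusted p = 0.0813) and Sesn1 at 14.5 ± 3.15 and 19.4 ± 1.5 CPM (adjusted p = 0.181). Poldip3, the S6K1 substrate also known as SKAR, was at 163 ± 18.1 and 127 ± 5.49 CPM (adjusted p = 0.0903). The Rag GTPase Rragc (113 ± 4.20 and 97.8 ± 7.79 CPM, adjusted p = 0.184) and Pdpk1, which encodes the kinase PDK1 that activates AKT and S6K (52.4 ± 3.97 and 61.9 ± 6.04 CPM, adjusted p = 0.188), had the smallest p among the complex and its activators.

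In the PI3K and AKT pathway 28 of 28 genes were tested and 0 were called, against 1.59% of all tested genes. At an unadjusted p under 0.05 there were 9 with higher and 0 with lower values in H89 tumors, against 13.1% and 11.9% of all genes. The median log2 fold change was 0.10, against 0.00 for all genes. Pik3cd, which encodes the PI3K catalytic subunit of leukocytes, was at 28.1 ± 2.71 CPM in the NaCl group and 37.9 ± 5.22 CPM in the H89 group (edgeR adjusted p = 0.0995). Pik3r1, the p85 regulatory subunit, was at 41.7 ± 2.02 and 49.8 ± 1.13 CPM (adjusted p = 0.107). T cell markers had log2 fold changes above 0 in the same comparison with overlapping sums, and their part in the Pik3cd value was not tested. Phosphatases that oppose AKT signaling gave Phlpp2 at 22.6 ± 1.06 and 29.3 ± 3.68 CPM and Inpp4a at 18.4 ± 1.47 and 22.4 ± 1.14 CPM (adjusted p = 0.105 and 0.157). Of the AKT substrates, Chuk, which encodes IKK-alpha, was at 44.2 ± 2.16 and 55.7 ± 3.96 CPM (adjusted p = 0.0841), and Gsk3a, a kinase of glycogen metabolism, was at 185 ± 27.4 and 153 ± 13.2 CPM with overlapping groups (adjusted p = 0.218).

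The phosphatase PP2A removes activating phosphates from AKT and S6K. Of its 18 tested subunits and regulators 0 were called, against 1.59% of all tested genes, and 7 (38.9%) had an unadjusted p under 0.05, against 25.0%. The groups did not overlap for 12 of the 18 (4 with H89 above, 8 below), against 30.7% of all tested genes. The catalytic subunit Ppp2ca was at a mean of 232 CPM in the NaCl group and 213 CPM in the H89 group (log2 fold change -0.12, edgeR adjusted p = 0.341), and Ppp2cb at 106 and 94.4 CPM (-0.17, adjusted p = 0.2). These subunits were named after their values were seen. Ptpa, a PP2A activator, was at 330 ± 30.4 and 262 ± 10.2 CPM (adjusted p = 0.0963), while Cip2a, an inhibitor of PP2A, was at 50.6 ± 8.02 and 67.7 ± 5.06 CPM (adjusted p = 0.106).

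For the nitric oxide, cGMP and PKG pathway 11 of 15 genes were tested, 0 were called (1.59% of all tested genes), 0 had an unadjusted p under 0.05 (25.0% of all) and 0 were apart between groups (30.7% of all). Pde2a, a phosphodiesterase that cGMP stimulates, was at 16.0 ± 3.62 CPM in the NaCl group and 11.9 ± 2.27 CPM in the H89 group (edgeR adjusted p = 0.236), and Rgs2, a PKG I substrate that restrains G protein signaling, was at 6.52 ± 1.40 and 8.02 ± 1.08 CPM (adjusted p = 0.375). Around Prkd1, 0 of 9 protein kinase C genes were called (1.59% of all tested genes), with 8 log2 fold changes above 0 (50.6% of all) and a median of 0.22 (0.00 over all). Prkcd was at 74.3 ± 3.71 and 91.6 ± 4.03 CPM (adjusted p = 0.0827) and Prkcz, an atypical isoform of low level, at 1.91 ± 0.0551 and 3.01 ± 0.208 CPM (adjusted p = 0.1). The PKD substrates Rin1 (204 ± 8.09 and 158 ± 15.3 CPM, adjusted p = 0.0827) and Hdac5 (82.6 ± 13.5 and 60.8 ± 2.76 CPM, adjusted p = 0.0883) were lower in all H89 tumors without passing the test.

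**Figure D4:**
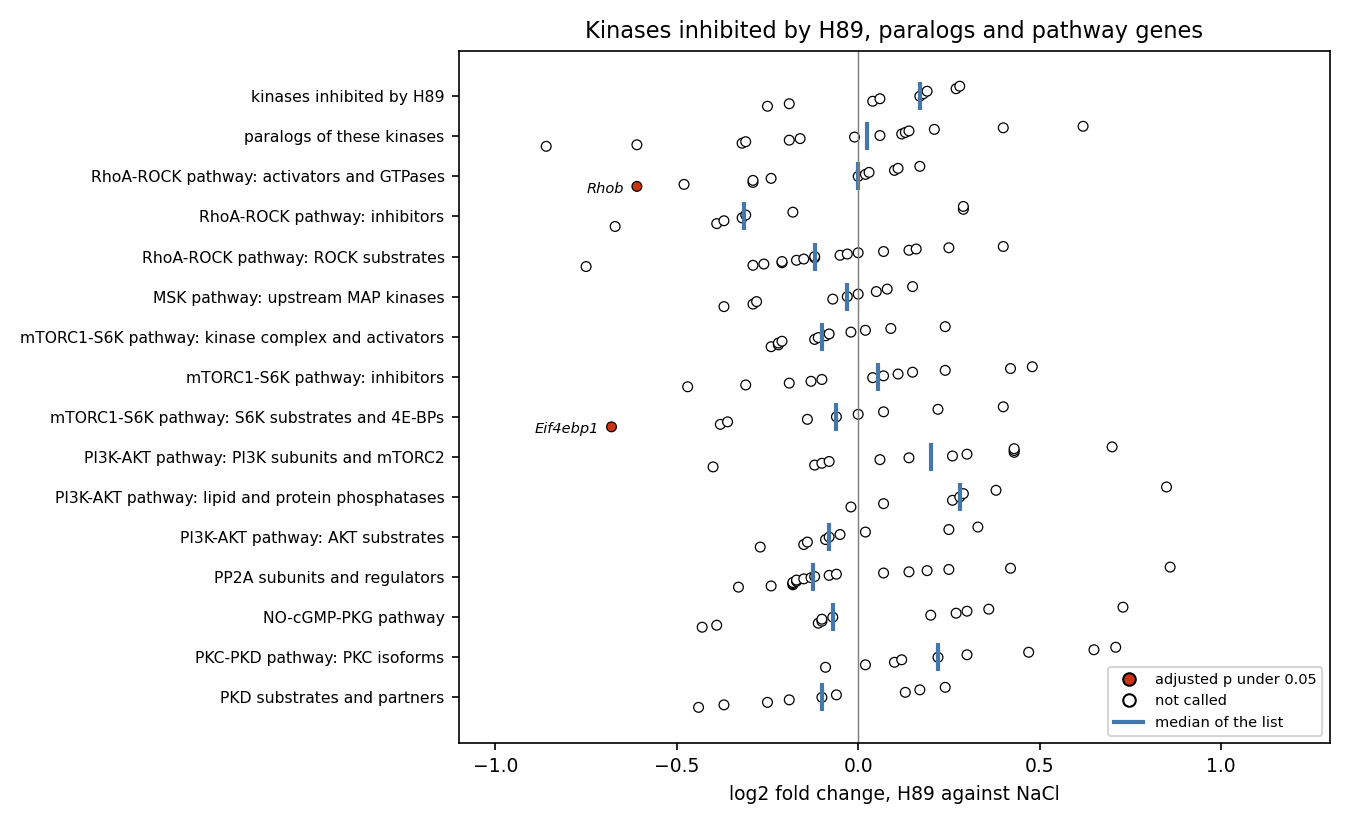
Log2 fold change of H89 against NaCl tumors for each tested gene of the lists around the kinases, 1 row per list, with the list's median. Medians run from -0.31 for the inhibitors of RhoA signaling to 0.28 for the phosphatases of the AKT pathway, and the called genes Rhob (-0.61) and Eif4ebp1 (-0.68) are marked.

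The differences between groups moved with the GC content of the transcripts. Over 12920 tested genes with an annotated transcript, the correlation of GC content with the log2 fold change was -0.16 (across genes, which are not independent replicates), and the median log2 fold change was 0.11 in the GC-poorest and -0.09 in the GC-richest of 5 equal groups of genes. The 5 kinases in the GC-poorest group, Rock1, Rock2, Rps6ka5, Rps6kb1 and Pkn2, had log2 fold changes of 0.04 to 0.19. The GC-richest group held Rps6ka4 (60.3% GC) and Akt1 (59.7%), which had the only values below 0, and also Rps6kb2 (55.6%) at 0.27. With a correction for GC content and length within each tumor, those of the GC-poorest group became -0.11 to 0.01 and their sign changed for Rock2 and Pkn2. The corrected values were 0.26 for Rps6kb2, 0.20 for Prkd1, -0.17 for Akt1 and -0.22 for Rps6ka4, the median of the 9 kinases was 0.00, and that of all genes was -0.048. The GC content of a library is a property of both its preparation and its RNA, and these cannot be told apart here. The level of GC-poor over GC-rich genes in a tumor (log2, relative to the mean over tumors) was -0.26, -0.08 and 0.08 in NaCl and -0.07, 0.13 and 0.22 in H89 tumors, so the groups overlapped.

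**Figure D5:**
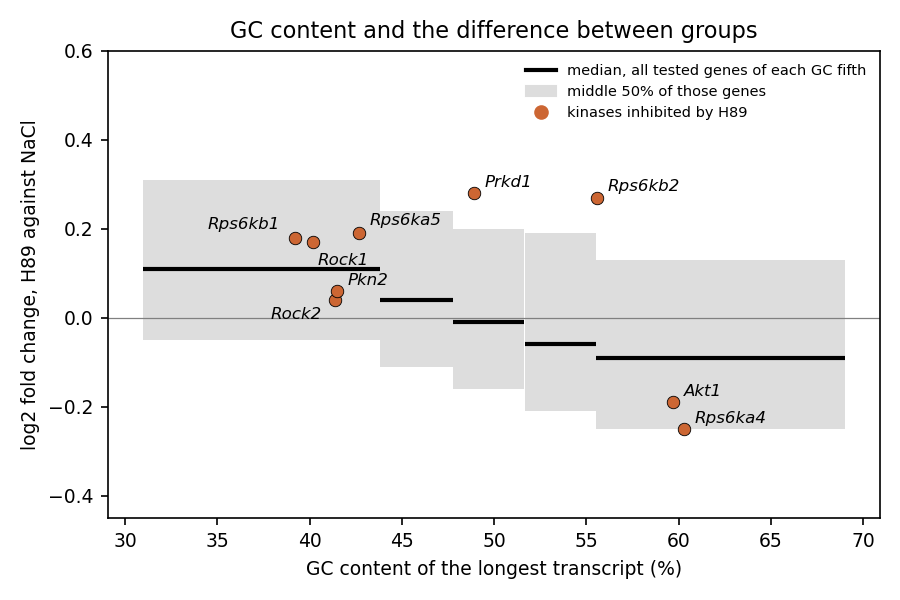
Log2 fold change of H89 against NaCl tumors plotted against the GC content of the longest transcript, with the 9 tested kinases labelled over the medians and interquartile ranges of 5 equal groups of genes. The medians go from 0.11 at low to -0.09 at high GC content, and the GC-poor kinases lie near them.

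Across the 6 tumors the kinases followed different profiles. The log2 level of Rps6ka4 went with that of Akt1 (Pearson r = 0.85, a description over 6 tumors that include both groups) and against that of Pkn2 (r = -0.93) and Rps6ka5 (r = -0.83), and Rock2 went against Akt1 (r = -0.81). Rps6ka4 and Akt1 are GC-rich and the others GC-poor, and all values of a tumor share 1 library. Rock1 and Rock2 were hardly related (r = 0.22), as were Rps6kb2 and Akt1 (r = -0.02). The tested gene most like each kinase was Pnpla3 for Rock1 (r = 0.9953), Rab3gap2 for Rock2 (0.9982), Myo5a for Rps6ka5 (0.9989), Arl2 for Rps6ka4 (0.9927), 3830406C13Rik for Rps6kb1 (0.9947), Tmod4 for Rps6kb2 (0.9956), Rpusd1 for Akt1 (0.9937), Ammecr1l for Pkn2 (0.9835) and Pgap1 for Prkd1 (0.9939). Each was picked as the highest among all tested genes with 6 points, and Pnpla3 and Tmod4 were of low level, at 0.45 and 1.32 CPM in NaCl tumors.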

How the data were processed

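RNA of 6 CT26 tumors (3 NaCl, 3 H89), flash frozen and extracted with Trizol, was sequenced on the BGISEQ-500 platform. The authors deposited 1 table of estimated counts per gene (columns are genes), although it is called TPM: values sum to 27067349 to 31958793 per tumor, and 58.6% to 61.4% of the values above 0 lie within 0.01 of a whole number. The submitters' processing notes name kallisto, DESeq2 and the build GRCm38. Versions, annotation and strandedness are not given in the sources used here.

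Counts were rounded. CPM are scaled by TMM library sizes. Genes with a mean of at least 0.5 CPM, 13118 in number, were tested with edgeR 4.0.16 (glmQLFit, glmQLFTest, R 4.3.3, treatment as the only term, Benjamini-Hochberg adjusted p under 0.05), also on simulated data. The SE is the absolute log2 fold change over the square root of F. Ratios and permutation tests used log2(CPM + 0.5). Alternatives used limma 3.58.1, DESeq2 1.42.0, other filters, pseudocounts and scalings, GC content and length correction, and leaving out each tumor. Positions, GC content and overlaps are from GENCODE M21 (23007 of 23557 symbols matched). The table's columns were named one by one for 276 genes and the other 23281 were read alike. Replicates differed by more than sampling noise, H89 tumor 3 the most.

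The members and lists were chosen with earlier results of these data known. Named genes are the 10 kinases, in each list the called genes and otherwise those with the smallest p up to 2, and the gene most correlated with each kinase. Relatives and genes sharing exons were named besides, after their values were seen. Of the 8 ratios computed, 2, and the values of some relatives, are not reported here.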

Additional observations from a re-analysis of the deposited data

How the results depend on the processing

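No kinase was called under any of the 17 alternatives (edgeR, limma or DESeq2), with 0 to 3 of them at an unadjusted p under 0.05. The number of genes called was 208. It was 220 with voom in limma, 251 with median ratio normalization, 311 with no filter and 197 with a mean of at least 5 CPM. With DESeq2 it became 1406. It was 0 with quantile normalization in limma (2620 at an unadjusted p under 0.05), limma with a pseudocount of 0.5 (3151) or 1 (3207), and limma with GC content and length correction (3523). Without 1 tumor it was 0 to 12 (12 without H89 tumor 3, 2 without NaCl tumor 1, and 0 without any of the others), with 2401 to 3440 at an unadjusted p under 0.05. Of the 167 pathway genes, 2 were called, also 2 with voom in limma, 4 with no filter and 22 with DESeq2. Sesn2, Poldip3, Mapk3, Map2k3, Pik3cd, Ptpa, Prkcd, Rin1 and Hdac5 each passed under 1 of the 17 alternatives and not in the main fit. Under the limma settings with 0 genes named above, 0 of the 167 pathway genes were called (26, 45, 48 and 53 at an unadjusted p under 0.05). Without any 1 tumor 0 were called (36 to 59 at an unadjusted p under 0.05). The labels do not say whether the replicate numbers pair the tumors. Correlations of deviations were 0.164, 0.062 and -0.025 for equal numbers and -0.374 to 0.349 for unequal ones. With 3 tumors per group they do not settle it. With the replicate block, edgeR called 0 genes (3750 at an unadjusted p under 0.05) and 0 pathway genes (62), and GC content and length correction with the replicate block called 0 genes (3437) and 0 pathway genes (45). Signs turned for Rock2 (GC content and length correction -0.11 with and without the block, without 1 tumor -0.05 to 0.11, the lowest without H89 tumor 3) and Pkn2 (correction -0.07 with and without the block). Without 1 tumor, signs also turned for the ratios of Rps6kb1 to Rps6kb2 (-0.16 to 0.07, the latter without H89 tumor 1) and Prkd1 to Prkd2 (-0.18 without H89 tumor 2 and -0.083 without NaCl tumor 2, to 0.34). The cause was not tested. With 3 tumors per group, the spread between tumors limits the precision, and counting error adds to it for Rps6ka5 and Prkd1.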
